A study of Homo sapiens with 4 samples.

Results

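The regions described here carry the small structured RNAs of the nucleus and cytosol and their genomic copies: 7SK, the 7SL RNA of the signal recognition particle, the Y RNAs and BC200, the small nuclear RNAs, the tRNAs, and the RNA components of RNase P and RNase MRP. A region was a member when it lay outside the mitochondrial genome and its deposited annotation placed it in the repeat class RNA (7SK copies), srpRNA (7SL copies), scRNA (Y RNA and BC200 copies), snRNA, tRNA or rRNA. It was also a member when its gene was RN7SK, RN7SL1, RN7SL2, RN7SL3, RMRP or RPPH1 and it was annotated as neither intergenic nor intronic. This gave 1193 of 3814162 regions in the table of immunoprecipitated RNA and 1307 of 2310971 in the table of total RNA, and 0 of them were of the class rRNA.

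The study treated NCI-H1944, an established human lung adenocarcinoma cell line labelled wild type, with BAY-1217389 at 100 nM, which inhibits MPS1, a kinase of mitosis (MPS1i), or with DMSO as the solvent control. Exposure lasted 48 h and was followed by 24 h without drug. Total RNA (Input) came from 10% of each lysate, and the rest of it was precipitated with J2, an antibody against double-stranded RNA. The 4 groups, MPS1i J2, DMSO J2, MPS1i Input and DMSO Input, held 1 library each, and the stated question was how dsRNA-forming transcripts change after the pulse of inhibitor.

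RNA polymerase III makes 7SK, 7SL, the Y RNAs, U6, the tRNAs, RPPH1 and RMRP, and RNA polymerase II makes most other spliceosomal snRNAs. 7SK holds the elongation factor P-TEFb in an inactive particle, 7SL is the scaffold on which the signal recognition particle binds secretory signal peptides, Y RNAs bind the Ro and La proteins, RPPH1 trims the 5′ end of precursor tRNAs, and RMRP acts on precursor ribosomal RNA. All of them fold on themselves into short helices, and their many degenerate copies across the human genome are mostly pseudogenes.

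The sequences of RN7SK and of its most-read copy RN7SKP203 are shown because regions opposite to both had lower levels in total RNA after MPS1i and because reads of similar copies can be split or shared in counting. They are GENCODE release 29 transcripts on GRCh38, 5′ to 3′ on the strand of the gene, from chr6:52995621-52995948 (plus strand) for RN7SK and chr2:76445079-76445410 (minus strand) for RN7SKP203. Capitals mark bases of RN7SKP203 that differ from RN7SK in a global alignment, and both are shown to base 300.
RN7SK: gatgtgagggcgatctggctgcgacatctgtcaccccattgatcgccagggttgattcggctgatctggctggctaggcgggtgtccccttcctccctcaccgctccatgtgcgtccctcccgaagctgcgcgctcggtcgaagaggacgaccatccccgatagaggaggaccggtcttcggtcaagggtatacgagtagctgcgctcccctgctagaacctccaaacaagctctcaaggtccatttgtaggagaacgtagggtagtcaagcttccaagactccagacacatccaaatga
RN7SKP203: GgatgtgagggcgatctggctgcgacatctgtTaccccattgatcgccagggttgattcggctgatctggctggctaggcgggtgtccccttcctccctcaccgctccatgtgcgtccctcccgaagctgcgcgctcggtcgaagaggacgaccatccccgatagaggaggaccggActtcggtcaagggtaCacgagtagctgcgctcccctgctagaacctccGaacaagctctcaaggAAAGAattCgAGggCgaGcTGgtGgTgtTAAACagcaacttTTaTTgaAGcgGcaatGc
Of the GENCODE transcripts of the 7SL genes, RN7SL1 and RN7SL2 were 98.3% identical, RN7SL1 and RN7SL3 97.7%, and RN7SL2 and RN7SL3 96%. The values of the RN7SL genes are therefore uncertain one by one, and their sum is given beside them. RN7SK shared 84.8% of aligned positions with RN7SKP203 and 83.2% with RN7SKP255, a further copy described below. Most capitals of RN7SKP203 lie near the end of the printed bases, largely beyond the stretch that its read region covers (chr2:76445168-76445400). The read stretch is therefore closer to RN7SK than 84.8%, and the values of RN7SK and RN7SKP203 are also uncertain one by one. In folds predicted by RNAfold, 59.7% to 69.3% of the bases of RN7SK, RN7SL1 to RN7SL3, RPPH1 and RMRP were paired, and the longest helix without interruption ran over 7 to 9 base pairs.

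The libraries held 6697479 (MPS1i J2), 9793355 (DMSO J2), 4844956 (MPS1i Input) and 6381610 (DMSO Input) counts, and values are given as raw counts or as library-scaled counts (CPM, each count over the summed count of its library). Members took 0.0270% and 0.0313% of the MPS1i and DMSO J2 reads, and 0.225% and 0.277% of the MPS1i and DMSO Input reads. Reads of the MPS1i Input library fell on 484849 regions, against 940751 in DMSO Input, while the J2 libraries reached 1176736 (MPS1i) and 1208576 (DMSO). Of 8 lung epithelial markers 4 were measured in each table, KRT19 and NKX2-1 had 0 reads, and the summed marker level was 88.8 CPM in MPS1i J2 and 95.2 in DMSO J2, and 838 in MPS1i Input and 513 in DMSO Input. KRT18 gave 3386 of the 4060 marker counts of MPS1i Input and 2405 of the 3276 of DMSO Input, and without it the markers were at 139 CPM in MPS1i Input and 136 in DMSO Input. The fibroblast markers and the leukocyte markers each summed to at most 12 counts in any library.

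Both tables hold few regions on annotated transcripts: 0.248% of the J2 regions and 0.314% of the Input regions overlapped an exon on the same strand. No member region overlapped an annotated small RNA gene (snRNA, Y RNA, 7SL, 7SK, ribozyme) on the strand of that gene, whereas 430 members of the J2 table and 491 of the Input table overlapped one on the other strand. The regions over RN7SK, RN7SL1, RN7SL2, RN7SL3, RPPH1 and RMRP all lay on the strand opposite to the gene, within nearly the same bounds as the gene. Values named for these genes below are counts of regions on that opposite strand. Whether their reads came from the mature RNA or from a transcript of the opposite strand was not tested, nor was the reason for this strand. Over all regions on one strand of a gene, 78.7% (MPS1i J2), 86.6% (DMSO J2), 76.4% (MPS1i Input) and 81.8% (DMSO Input) of the reads were on the strand of the gene.

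The 6 gene regions dominated the members in total RNA. They held 84.7% of the member reads of MPS1i Input (95% Wilson interval 84.1 to 85.4) and 85.9% of those of DMSO Input (85.3 to 86.4), against 4.76% in MPS1i J2 (3.87 to 5.84) and 2.97% in DMSO J2 (2.42 to 3.63). All intervals here cover counting error only. With 1 library per group the differences have no replicate check, and less RNA per cell and fewer cells with the RNA cannot be told apart. A region or sum was called higher or lower when its 2 libraries held at least 50 counts, its CPM differed at least 2-fold and the exact 95% counting interval of the ratio excluded 1.

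**Figure D1:**
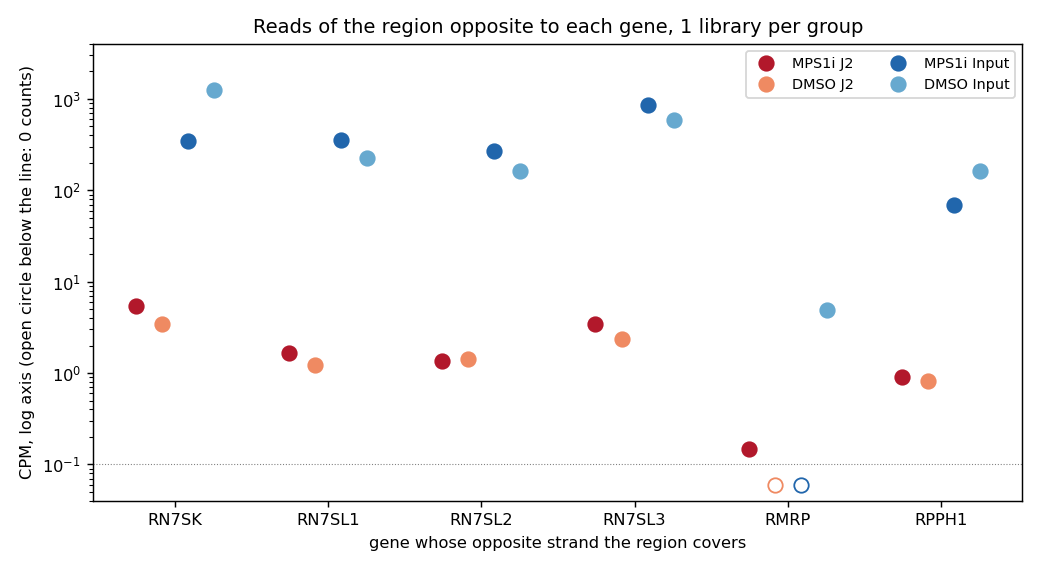
Level in CPM (log axis) of the region opposite to each of the 6 genes in the MPS1i J2, DMSO J2, MPS1i Input and DMSO Input libraries, 1 point per library. RN7SK stands at 345 CPM in MPS1i Input and 1240 CPM in DMSO Input, the RN7SL genes are higher in MPS1i Input than in DMSO Input, and all J2 values are at or under 5.38 CPM; open circles mark libraries with 0 counts.

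The RN7SK region fell in total RNA after MPS1i. It spans chr6:52995618-52995957 (minus strand) and had 1670 counts in MPS1i Input, against 7910 in DMSO Input. The log2 ratio was -1.85 (95% counting interval -1.92 to -1.77). In J2 the region had 36 counts in MPS1i and 34 in DMSO, a log2 ratio of 0.63 (-0.09 to 1.35) that was not called. The lower level after MPS1i was that of Input, and the J2 values of MPS1i and DMSO were within counting error of each other.

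Copies of 7SK in total RNA also had lower levels. The class sum was 161 counts in MPS1i Input and 555 in DMSO Input, a log2 ratio of -1.39 (-1.65 to -1.13). RN7SKP203, a 7SK pseudogene on chromosome 2, was read on the strand opposite to it at chr2:76445168-76445400 (plus strand) with 74 counts in MPS1i Input and 332 in DMSO Input (log2 -1.77, -2.15 to -1.40). RN7SKP255 on chromosome 14 was read on the opposite strand at chr14:89712510-89712751 (minus strand) with 8 counts in MPS1i Input and 44 in DMSO Input (log2 -2.06, -3.36 to -0.96). Unlike that of RN7SKP203, this region also lies on the strand of another gene, AL137230.2. In an alternative chosen after seeing the data, as are all values below that leave out 1 region, the class without RN7SKP203 held 87 counts in MPS1i Input and 223 in DMSO Input (log2 -0.96, -1.34 to -0.60) and was no longer called. Of the 7 regions opposite to an annotated 7SK pseudogene with at least 10 counts in Input, 6 had a lower CPM in MPS1i than in DMSO. All 7 together held 112 counts in MPS1i Input and 473 in DMSO Input, and RN7SKP203 gave 74 and 332 of these. Those opposite to RN7SKP80, RN7SKP47 and RN7SKP71 also lay on the strand of another gene (SERHL2, TRPM6 and HECTD4). The share over all Input regions at this cut is not given, so the tally alone is no result about the copies. Whether reads of these copies derive from RN7SK itself was not tested. In J2 the class summed to 82 counts in MPS1i and 157 in DMSO, a log2 ratio of -0.39 (-0.79 to 0.01) that was not called.

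The regions opposite to the 7SL genes had a higher CPM in MPS1i Input than in DMSO Input, beyond counting error and by less than the 2-fold set for a call. RN7SL3 had 4187 counts in MPS1i Input and 3722 in DMSO Input (log2 0.57, 0.50 to 0.63). RN7SL1 had 1738 in MPS1i Input and 1425 in DMSO Input (log2 0.68, 0.58 to 0.79), in a region that also lies on the strand of the ribosomal protein gene RPS29. RN7SL2 had 1304 in MPS1i Input and 1050 in DMSO Input (log2 0.71, 0.59 to 0.83). Their sum, 7229 counts in MPS1i Input and 6197 in DMSO Input, gave 0.62 (0.57 to 0.67), while J2 held 43 counts in MPS1i and 49 in DMSO for all 3 (log2 0.36, -0.27 to 0.98). The 3 Input ratios were within 0.57 to 0.71 on the log2 scale, for near-identical sequences that may share reads.

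The catalytic RNA of RNase P, RPPH1, was read on the opposite strand at chr14:20343070-20343420 (plus strand), and this region also fell. It had 336 counts in MPS1i Input and 1029 in DMSO Input (log2 -1.22, -1.40 to -1.04), and 6 counts in MPS1i J2 and 8 in DMSO J2. The region opposite to RMRP, at chr9:35657750-35658020 (plus strand), had 0 counts in MPS1i Input and 31 in DMSO Input. With a floor of 3 counts set for the library at 0, it was 7.85-fold lower in MPS1i Input. The upper bound of the exact 95% counting interval of its log2 ratio was -2.59. It had under 50 counts and so lay outside the rule for a call. In J2 the RMRP region had 1 count in MPS1i and 0 in DMSO. Summed over all regions that the member rule assigns to each gene, RPPH1 had 339 counts in MPS1i Input and 1035 in DMSO Input (log2 -1.21), and 27 in MPS1i J2 and 17 in DMSO J2. The same sum for RMRP was 7 counts in MPS1i Input and 31 in DMSO Input (log2 -1.75, -3.18 to -0.54), and 4 in MPS1i J2 and 0 in DMSO J2, all under the minimum of 50.

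Scaling bears on these Input ratios. TMM factors over all regions of the Input table moved every Input log2 ratio of MPS1i over DMSO by -0.45. On that scale RN7SK stood at -2.29 and RPPH1 at -1.67, and the 3 RN7SL regions kept positive values of 0.12 to 0.26. The sum over all members, -0.30 in Input, turned to 0.36 without the most-read region of each class and gene group, which leaves out RN7SK.

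**Figure D2:**
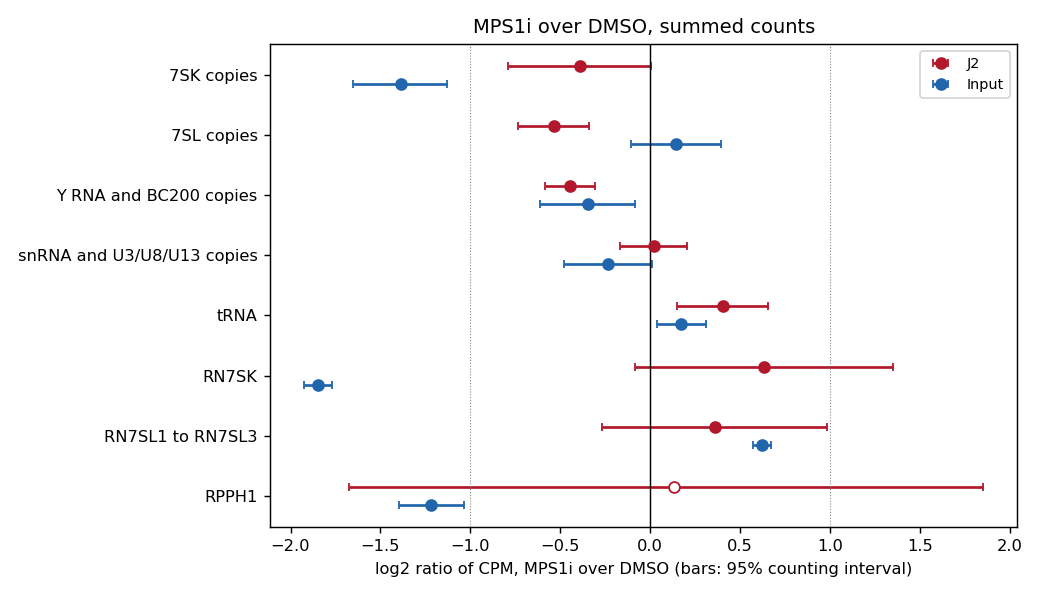
Log2 ratio of CPM, MPS1i over DMSO, of the summed counts of each repeat class and of the gene regions in J2 (red) and Input (blue), with 95% counting intervals; dotted lines mark 2-fold and the open circle a sum under 50 counts. In Input the 7SK copies, RN7SK and RPPH1 lie beyond 2-fold lower, and no J2 value lies beyond the dotted lines.

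No class other than the 7SK copies was called between MPS1i and DMSO in either table. The 7SL copies held 310 counts in MPS1i J2 and 657 in DMSO J2 (log2 -0.54, -0.73 to -0.34), and 243 in MPS1i Input and 290 in DMSO Input (log2 0.14, -0.11 to 0.39, and -0.31 with TMM factors). The Y RNA and BC200 copies held 644 in MPS1i J2 and 1283 in DMSO J2 (log2 -0.45), and 193 in MPS1i Input and 323 in DMSO Input (log2 -0.35). Without their most-read region, an HY3 region on chromosome 8, they held 149 in MPS1i J2 and 177 in DMSO J2 (log2 0.30, -0.02 to 0.62), a turn of sign. The snRNA copies held 404 in MPS1i J2 and 583 in DMSO J2 (log2 0.02), and 231 in MPS1i Input and 358 in DMSO Input (log2 -0.23). The tRNA regions held 244 in MPS1i J2 and 270 in DMSO J2 (log2 0.40), and 820 in MPS1i Input and 958 in DMSO Input (log2 0.17, and -0.27 with TMM factors). Without their most-read region, the snRNA copies were at -0.14 in J2 (the U3 region of chromosome 21) and the tRNAs at -0.0026 in Input (a region in ERCC1). Classes other than 7SK therefore stayed within 2-fold, and the sign in Input of the 7SL copies and the tRNAs turned with the scaling.

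By repeat name, 13 names were measured in J2 and 18 in Input. In J2 0 of 13 were higher and 1 was lower, against 4.95% higher and 3.98% lower of all repeat names measured. In Input 0 of 18 were higher and 3 lower, against 6.41% and 3.20% of all names. The name lower in J2 was U13, copies of a small nucleolar RNA that guides ribosomal RNA processing, with 21 counts in MPS1i J2 and 68 in DMSO J2 (log2 -1.15, -1.93 to -0.42). A region in XPNPEP3 gave 6 of these counts in MPS1i and 47 in DMSO, and without it U13 had 15 in MPS1i J2 and 21 in DMSO J2 (log2 0.06), under the minimum. The names lower in Input were 7SK, the U6 copies with 35 counts in MPS1i and 95 in DMSO (log2 -1.04, -1.65 to -0.47), and the HY1 copies with 16 in MPS1i and 43 in DMSO (log2 -1.03, -1.96 to -0.17). Without their most-read Input region, the U6 copies had 29 counts in MPS1i Input and 62 in DMSO Input (log2 -0.70, -1.39 to -0.04) and the HY1 copies 16 in MPS1i Input and 28 in DMSO Input (log2 -0.41), and neither was called. U6 is the catalytic core snRNA of the spliceosome and HY1 the family of the Y1 RNA. In J2 the U6 copies had 91 counts in MPS1i and 237 in DMSO (log2 -0.83, -1.20 to -0.48) and the HY1 copies 30 in MPS1i and 55 in DMSO (log2 -0.33, -1.02 to 0.34), neither of them called. The U3 copies had 87 counts in MPS1i J2 and 85 in DMSO J2 (log2 0.58), and 45 in MPS1i Input and 36 in DMSO Input (log2 0.72). The HY4 copies, of the Y4 family, had 33 counts in MPS1i J2 and 37 in DMSO J2 (log2 0.38), and 18 in MPS1i Input and 20 in DMSO Input.

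Single regions changed in both directions in J2. Of 10 member regions with at least 50 counts, 3 were higher and 2 lower, where 12.5% and 27.2% of all J2 regions were. A U2 region of 57608 bp, chr9:34253766-34311373 (plus strand), opposite to the kinesin gene KIF24, had 69 counts in MPS1i J2 and 18 in DMSO J2 (log2 2.49, 1.72 to 3.32), and a U2 pseudogene covers 0.248% of its length. A region opposite to a copy of U3, a nucleolar RNA of ribosome assembly, chr21:29180459-29180683 (plus strand), had 73 counts in MPS1i J2 and 50 in DMSO J2 (log2 1.09, 0.56 to 1.64). A region opposite to a tRNA-Met element, chr14:30418686-30418817 (minus strand), had 100 counts in MPS1i J2 and 72 in DMSO J2 (log2 1.02, 0.57 to 1.48). All 3 lay on the strand opposite to their element, which for tRNA-Met is inferred only from a deposited repeat field that does not name it.

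The lower regions in J2 lay inside genes and on the strand of those genes. A U6 region in NEMF, chr14:49839498-49840143 (minus strand), had 7 counts in MPS1i J2 and 69 in DMSO J2 (log2 -2.75, -4.12 to -1.63). A U13 region in XPNPEP3, chr22:40914750-40915050 (plus strand), had 6 counts in MPS1i J2 and 47 in DMSO J2 (log2 -2.42, -3.94 to -1.19). NEMF encodes a ribosome quality control factor and XPNPEP3 a mitochondrial aminopeptidase.

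In Input 0 of 16 member regions were higher and 5 lower, where 16.3% and 14.4% of all Input regions were. The lower regions were RN7SK, RPPH1, RN7SKP203, RN7SKP255 and a tRNA-Gly-GGA region at chr1:161612713-161612794 (plus strand) with 21 counts in MPS1i Input and 56 in DMSO Input (log2 -1.02, -1.82 to -0.27). The most-read regions that were not called are given as counts. In J2 the 7SL copies were led by a region in XRCC6, chr22:41650125-41650720 (plus strand), with 38 counts in MPS1i and 101 in DMSO (log2 -0.86, -1.44 to -0.31), and by one opposite to the pseudogene RN7SL338P, chr9:35049058-35049836 (minus strand), with 29 in MPS1i and 76 in DMSO (log2 -0.84, -1.51 to -0.21). The 2 leading 7SK copies in J2 lay on the strand of DCAF6, with 5 counts in MPS1i and 37 in DMSO, and of USP34, with 2 in MPS1i and 29 in DMSO, both under the minimum. After HY3, the scRNA class in J2 was led by a 41279 bp HY5 region opposite to BIVM and ERCC5, with 25 counts in MPS1i and 17 in DMSO, and the tRNA class after tRNA-Met by tRNA-Glu-GAG_ in NNT-AS1, with 14 in MPS1i and 34 in DMSO. Of these 6 regions, 4 lay on the strand of a gene and 2 opposite to one. In Input the 7SL copies were led by a region opposite to RN7SL494P, chr15:50244692-50244845 (plus strand), with 38 counts in MPS1i and 43 in DMSO, and by a 28028 bp region opposite to GLTP, with 15 in MPS1i and 30 in DMSO. BC200 in PCSK6 had 7 counts in MPS1i Input and 31 in DMSO Input, U6 in ARHGAP21 6 in MPS1i Input and 33 in DMSO Input, and the U3 region of chromosome 21 40 in MPS1i Input and 28 in DMSO Input. Over all classes, the median length of a member was 113 bp in the J2 table and 82 bp in the Input table, and 34 and 19 members were over 500 bp. The median log2 ratio over the measured members was -0.65 in J2 and 0.05 in Input, against -0.21 and 0.07 over all regions.

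**Figure D3:**
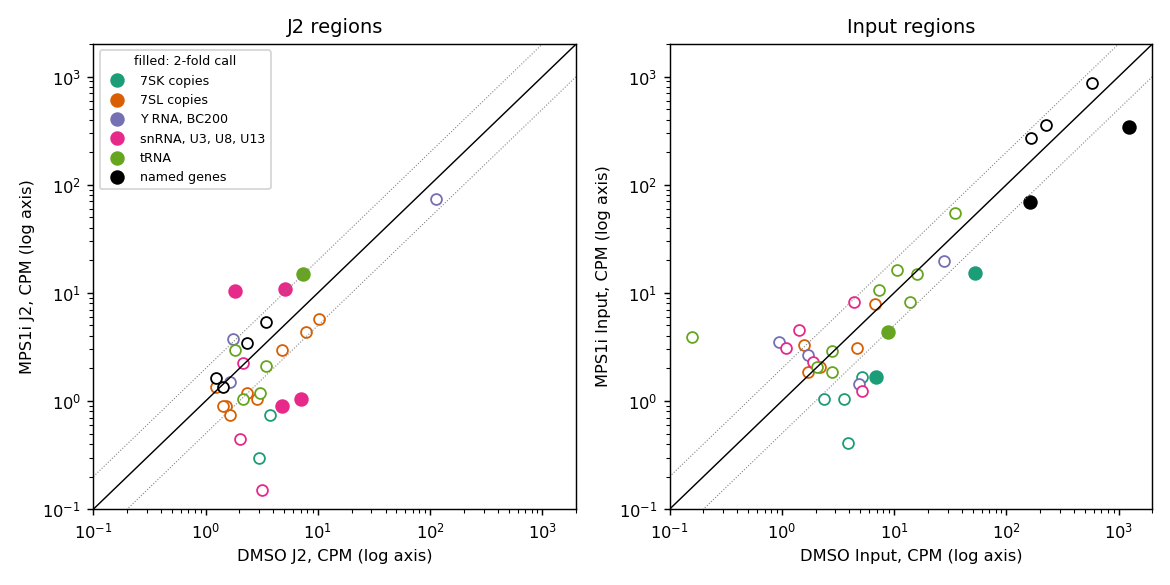
CPM of single member regions in MPS1i (vertical, log axis) against DMSO (horizontal, log axis), for J2 and for Input, with at least 20 counts in the pair and a read in both libraries (30 J2 and 35 Input regions; 1 of each table with a 0 is not drawn). The solid line marks equal levels, dotted lines 2-fold, and filled points called regions: 3 above and 2 under the line in J2, and 5 under it in Input.

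By place, no sum of members was called in J2. Repeat-annotated members on the strand of a gene held 549 counts in MPS1i J2 and 1290 in DMSO J2 (log2 -0.68, -0.83 to -0.54), beside -0.26 for all regions so placed. Members outside genes held 284 in MPS1i J2 and 230 in DMSO J2 (log2 0.85, 0.60 to 1.11), beside 0.51 for all regions outside genes. Members opposite to a gene held 851 in MPS1i J2 and 1430 in DMSO J2 (log2 -0.20, -0.32 to -0.08), beside 0.53 for all such regions. The HY3 region of chromosome 8 decided that value, and without it they held 356 in MPS1i J2 and 324 in DMSO J2 (log2 0.68, 0.46 to 0.91). In Input the members were at -0.21 on the strand of a gene, 0.01 outside genes and -0.29 opposite to a gene, beside -0.15, 0.69 and 0.30 for all regions, and members opposite to a gene were at 0.17 in Input without RN7SKP203.

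J2 recovered little from the gene regions relative to total RNA. The RN7SK region had 5.38 CPM in J2 and 345 CPM in Input of MPS1i cells (log2 J2 over Input -6.00, -6.52 to -5.53), and 3.47 CPM in J2 and 1240 CPM in Input of DMSO cells (log2 -8.48, -9.01 to -8.00). The RN7SL sum stood at -7.86 (-8.33 to -7.43) in MPS1i and -7.60 (-8.04 to -7.20) in DMSO. The RPPH1 region stood at -6.27 in MPS1i and -7.62 in DMSO. Summed over all regions of the member rule, RPPH1 stood at -4.12 in MPS1i and -6.55 in DMSO and RN7SK at -5.65 in MPS1i and -7.98 in DMSO. These are Input levels 64.1-fold (MPS1i) and 357-fold (DMSO) above J2 for RN7SK, and 232-fold (MPS1i) and 194-fold (DMSO) above it for the RN7SL sum.

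The change of J2 enrichment, which divides J2 over Input of MPS1i cells by the same ratio of DMSO cells, was called higher for RN7SK at log2 2.48 (delta-method 95% interval 1.80 to 3.15). The 4 counts behind it are those given above, with Input at 1670 in MPS1i and 7910 in DMSO and J2 at 36 in MPS1i and 34 in DMSO. For the RN7SL sum it was -0.26 (-0.85 to 0.33) and not called. The RPPH1 region, at 1.38 (-0.11 to 2.86), was under the minimum of 50 counts in J2. Over all regions of the member rule it was 2.33 (1.75 to 2.92) for RN7SK, and 2.41 for RPPH1, also under that minimum.

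**Figure D4:**
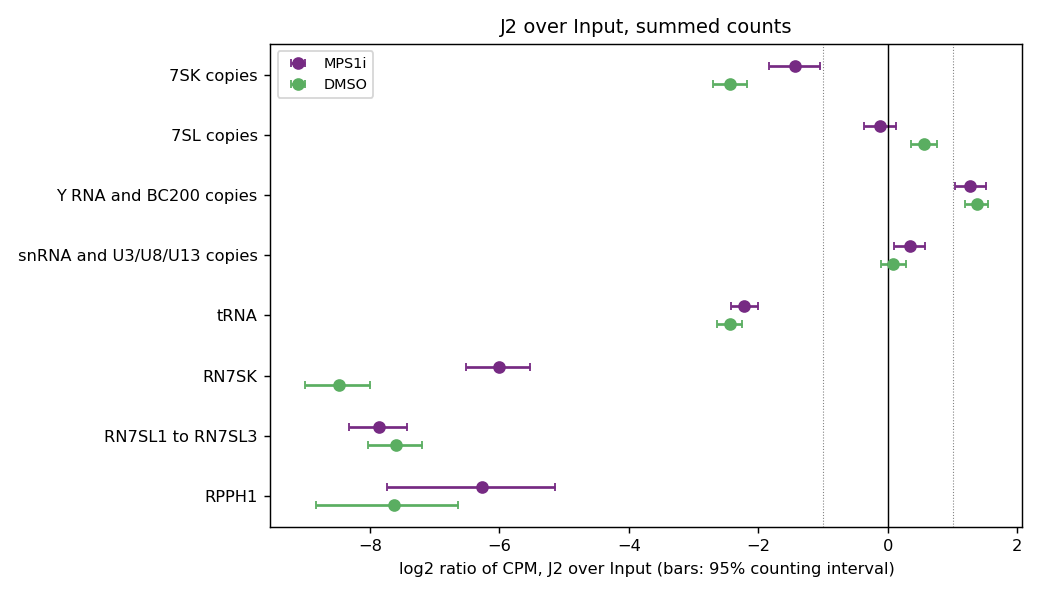
Log2 ratio of CPM, J2 over Input, of the summed counts of each repeat class and of the gene regions in MPS1i (purple) and DMSO (green), with 95% counting intervals; dotted lines mark 2-fold. The gene regions lie between -6.00 and -8.48, the tRNAs at -2.22 and -2.44, and only the Y RNA and BC200 copies lie beyond 2-fold above Input, at 1.27 and 1.37.

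The classes differed in how much J2 held of them. For scale, the median log2 J2 over Input of all single repeat names measured was 0.51 in MPS1i and 0.55 in DMSO. The Y RNA and BC200 copies were higher in J2 than in Input, at log2 1.27 (1.04 to 1.51) in MPS1i and 1.37 (1.19 to 1.55) in DMSO. The 7SK copies were lower in J2, at -1.44 (-1.84 to -1.05) in MPS1i and -2.44 (-2.70 to -2.18) in DMSO, and so were the tRNAs, at -2.22 (-2.43 to -2.01) in MPS1i and -2.44 (-2.65 to -2.25) in DMSO. Without RN7SKP203 the 7SK copies stood at -0.59 (-1.04 to -0.13) in MPS1i, no longer called, and at -1.12 (-1.43 to -0.82) in DMSO. The 7SL copies, at -0.12 in MPS1i and 0.56 in DMSO, and the snRNA copies, at 0.34 in MPS1i and 0.09 in DMSO, were not called. These sums run over separate sets of regions in each table, and leaving mitochondrial counts out of the scaling of single classes, tried after seeing the data, lowered J2 over Input by 0.31 in MPS1i and 0.39 in DMSO, which put the Y RNA and BC200 copies at 0.96 and 0.98, just under the 2-fold set for a call.

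The scRNA value rested largely on the HY3 region of chromosome 8. It lies at chr8:65592474-65593151 (minus strand), is annotated HY3 (the family of the Y3 RNA) and runs opposite to an annotated Y RNA copy that covers 13.3% of its 678 bp. It had 495 counts in MPS1i J2 and 1106 in DMSO J2, and 96 in MPS1i Input and 178 in DMSO Input. That was 76.9% of the scRNA reads of MPS1i J2, 86.2% of those of DMSO J2, 49.7% of those of MPS1i Input and 55.1% of those of DMSO Input. Its log2 J2 over Input was 1.90 (1.58 to 2.23) in MPS1i and 2.02 (1.79 to 2.25) in DMSO, and its MPS1i over DMSO ratio in J2 was -0.61 (-0.77 to -0.46). The scRNA regions without it held 149 counts in MPS1i J2 and 177 in DMSO J2, and 97 in MPS1i Input and 145 in DMSO Input, so J2 over Input was 0.15 (-0.23 to 0.54) in MPS1i and -0.33 (-0.66 to -0.0034) in DMSO, and the class was no longer called.

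For J2 over Input by name, 2 of 13 names measured in MPS1i were higher and 5 lower, against 19.9% and 5.59% of all names. In DMSO 1 of 16 was higher and 7 lower, against 23.3% and 5.09%. HY3 was higher in both, at 1.49 (1.22 to 1.77) in MPS1i and 1.84 (1.63 to 2.07) in DMSO, and without the region of chromosome 8 stood at -0.74 (-1.46 to -0.04) in MPS1i and -0.35 (-1.10 to 0.42) in DMSO. U2 copies were higher in MPS1i, with 113 counts in J2 and 38 in Input (log2 1.11), and stood at -0.02 in DMSO with 86 counts in J2 and 57 in Input. The U2 value in MPS1i was 0.79 without mitochondrial counts in the scaling, and -0.26 (-0.92 to 0.41) without the region opposite to KIF24. Names lower in both were 7SK, tRNA-Lys-AAG, tRNA-Cys-TGY and tRNA-SeC(e)-TGA. tRNA-Ala-GCY was lower in MPS1i, and BC200, U13_ and tRNA-Gly-GGA were lower in DMSO. Of the 7 names called in MPS1i 0 kept their call when their most-read J2 or most-read Input region was left out, and of the 8 called in DMSO 2 did, 7SK and U13_. Among matched regions, paired one to one between the tables by a reciprocal overlap of 90%, 1 of 8 measured members was higher and 6 lower in MPS1i (24.0% and 16.9% of all matched regions), and 2 of 9 were higher and 6 lower in DMSO (23.7% and 17.4%).

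The change of enrichment was called higher for 4 of 12 names measured and lower for 1, against 3.93% and 6.07% of all names. It was higher for 7SK copies at log2 1.00 (0.54 to 1.46), for BC200 copies at 1.24 (0.21 to 2.28), for U13_ copies at 1.04 (0.31 to 1.78) and for U2 copies at 1.12 (0.41 to 1.84). None of the 5 names kept its call in both leave-outs, of the most-read J2 region and of the most-read Input region. Without RN7SKP203 the change for 7SK was 0.54 (0.01 to 1.06), without the Input-leading region in PCSK6 that for BC200 was 0.52 (-0.69 to 1.73), and without its most-read J2 region that for U13_ was 0.87 (0.09 to 1.65). BC200, a neuronal cytoplasmic RNA related to Alu repeats, had 27 counts in MPS1i J2 and 31 in DMSO J2, and 21 in MPS1i Input and 52 in DMSO Input. U2, which pairs with the branch point in splicing, had 113 in MPS1i J2 and 86 in DMSO J2, and 38 in MPS1i Input and 57 in DMSO Input, and 69 and 18 of its J2 counts in MPS1i and DMSO were the region opposite to KIF24. Without that region the change for U2 was 0.11 (-0.69 to 0.91) and not called. U13 was lower at -1.03 (-2.05 to -0.0041), and was no longer called without mitochondrial counts (-0.95) or with TMM factors (-0.56), both tried on names after seeing the data. Without the region in XPNPEP3 it was -0.05 (-1.27 to 1.17), under the minimum. Of matched regions, RN7SK was the 1 higher of 4 measured and 0 were lower, against 13.6% and 8.84%.

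In Input the tRNAs stood apart from the other classes in strand. A region was counted as on the strand of its element when its deposited repeat field named that element, and as opposite otherwise. The strand of the element itself was not read. In Input 96.6% of the tRNA reads of MPS1i (95.1 to 97.6) and 96.7% of those of DMSO (95.3 to 97.6) were on the strand of the annotated tRNA. In J2 this was 29.9% in MPS1i (24.5 to 35.9) and 45.6% in DMSO (39.7 to 51.5). Of the J2 counts on that strand, 73 in MPS1i and 123 in DMSO, many came from regions much longer than a tRNA. Such regions were 884 bp in NNT-AS1 (14 in MPS1i, 34 in DMSO), 3217 bp opposite to THTPA (8 and 30) and 818 bp in ZNF767P (7 and 21). Split by strand, tRNA regions on the strand of the element were at log2 -3.91 J2 over Input in MPS1i and -3.53 in DMSO, and those on the opposite strand at 2.14 in MPS1i and 1.58 in DMSO. The opposite strand rested on 171 counts in MPS1i J2 and 147 in DMSO J2, and on 28 in MPS1i Input and 32 in DMSO Input, and the tRNA-Met region of chromosome 14 above gave 100 and 72 of those J2 counts in MPS1i and DMSO. Without it the opposite strand stood at 0.88 (0.23 to 1.56) in MPS1i and 0.61 (-0.0041 to 1.26) in DMSO. In the other classes, between 2.52% and 40.7% of the reads were on the strand of the element in every library.

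**Figure D5:**
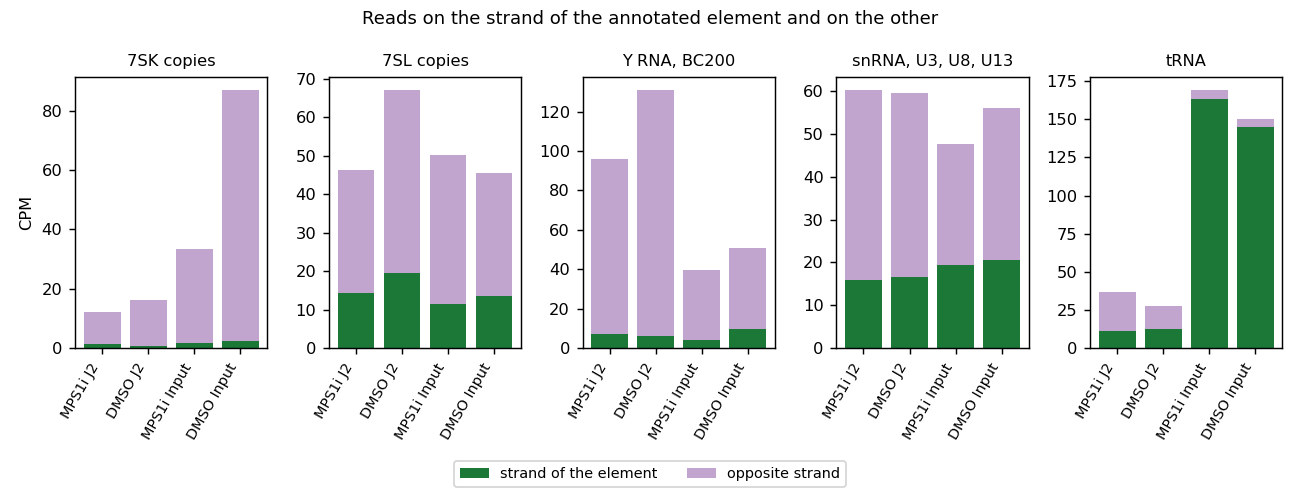
CPM of repeat-annotated members by class in the MPS1i J2, DMSO J2, MPS1i Input and DMSO Input libraries, split into reads on the strand of the annotated element (green) and on the opposite strand (lilac). A region is green when its deposited repeat field names the element and lilac otherwise. Each panel has its own scale from 0. The tRNA reads of both Input libraries are green for 96.6% and 96.7% of their height, and 7SK, 7SL and Y RNA bars are mostly lilac.

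Of 56 tRNA names, 50 had a read and 8 were measured in Input, where 0 were called between MPS1i and DMSO. The selenocysteine tRNA, tRNA-SeC(e)-TGA, which inserts selenocysteine at UGA codons, was the most read, with 268 counts in MPS1i Input and 226 in DMSO Input (log2 0.64, 0.38 to 0.91). In J2 it had 1 count in MPS1i and 5 in DMSO. Its reads came mostly from 1 region in ERCC1 at chr19:45478559-45478696 (minus strand), with 263 counts in MPS1i Input and 223 in DMSO Input. The lysine tRNA tRNA-Lys-AAG had 94 counts in MPS1i Input and 113 in DMSO Input, and 4 in MPS1i J2 and 3 in DMSO J2. The methionine tRNA tRNA-Met had 117 counts in MPS1i J2 and 113 in DMSO J2 (log2 0.60, 0.21 to 0.98), and 72 in MPS1i Input and 103 in DMSO Input, the Input counts all from a 3226 bp region opposite to THTPA. The cysteine tRNA tRNA-Cys-TGY had 41 counts in MPS1i Input and 89 in DMSO Input (log2 -0.72, -1.29 to -0.17), and 17 in MPS1i J2 and 28 in DMSO J2.

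The protein genes that work with these RNAs were measured as sums of region counts on their strand, which are mostly intronic. Of all genes, 15.9% were higher and 19.6% lower in J2, and 12.8% higher and 16.8% lower in Input, with medians of -0.20 and -0.22. Of the 7SK particle and P-TEFb list, 0 of 8 were higher and 1 lower in J2, and 0 of 9 were higher and 2 lower in Input. CDK9, the kinase of P-TEFb, had 14 in MPS1i Input and 39 in DMSO Input (log2 -1.08). Of the 7SK-binding proteins, LARP7 stood at -0.93 in J2 and -0.54 in Input, and the capping enzyme MEPCE at -0.37 and -0.08, none of them called.

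Of the signal recognition particle list, 1 of 7 was higher and 2 lower in J2, and 0 of 6 were called in Input. The receptor subunit SRPRB was at log2 2.19 in J2, with 125 counts in MPS1i and 40 in DMSO, and the subunits SRP68 at -1.68 and SRP54 at -1.14. Of the Y RNA and La proteins, 0 of 8 were higher and 3 lower in J2 (LARP1 -1.63, LARP4B -1.44 and PUF60 -1.18), and 0 of 7 were called in Input. Of RNA polymerase III and its factors, 1 of 23 was higher and 8 lower in J2, and 0 of 24 were higher and 5 lower in Input. The TFIIIC subunit GTF3C2 was at -1.87 in J2 and -2.29 in Input, the TFIIIB subunit BRF1 at -1.85 and -1.29, and the polymerase subunit POLR3C was the 1 higher in J2, at 1.13.

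The snRNP and snRNA assembly list had the most calls, with 3 of 35 higher and 21 lower in J2 and 1 of 31 higher and 14 lower in Input, at medians of -1.21 and -0.96. The snRNP import adaptor SNUPN had 22 counts in MPS1i J2 and 238 in DMSO J2 (log2 -2.89), and the U5 protein PRPF8 41 in MPS1i Input and 229 in DMSO Input (log2 -2.08). The Sm protein SNRPF went the other way, with 453 counts in MPS1i J2 and 129 in DMSO J2 (log2 2.36), and 241 in MPS1i Input and 146 in DMSO Input (log2 1.12). Of the Integrator list, whose complex cleaves snRNA precursors, 0 of 12 were higher and 5 lower in J2 and 0 of 12 higher and 4 lower in Input, INTS2 being at -1.48 and -1.81. Of RNase P, MRP and tRNA maturation, 0 of 13 were higher and 2 lower in J2 and 0 of 13 higher and 4 lower in Input. The tRNA 3′ processing nuclease ELAC2 had 15 counts in MPS1i J2 and 76 in DMSO J2 (log2 -1.79), and the tRNA ligase RTCB 39 in MPS1i Input and 139 in DMSO Input (log2 -1.44). Of the list of ribonucleases and Schlafen proteins, 1 of 7 was higher and 0 lower in J2 and 1 of 7 higher and 1 lower in Input. SLFN5, an interferon-inducible Schlafen protein, had 86 counts in MPS1i J2 and 13 in DMSO J2 (log2 3.27), and 81 in MPS1i Input and 13 in DMSO Input (log2 3.04), and the exonuclease XRN1 was lower in Input at -1.35.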

How the data were processed

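The authors deposited raw counts, whole numbers of reads per stranded genomic region, in 1 table for the J2 libraries and 1 for the Input libraries. HOMER, STAR, featureCounts, cutadapt, Trim Galore, Trimmomatic and the build GRCh38 (hg38) are named per the submitters' processing notes, without versions or roles. How regions were called and how duplicate or multiply mapping reads were treated is not given in the sources used here. Libraries were made with a stranded total RNA kit, per the labels' protocols.

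The members and lists were chosen with earlier results of these data known. Counts of member regions were summed per class, name and gene and scaled to the library's summed count. Ratios have exact (Clopper-Pearson) 95% counting intervals, and calls need 50 counts, 2-fold and an interval without 1. The change of enrichment uses counts plus 0.5, with minima of 50 (both J2 libraries) and 20 (both Input libraries). With 1 library per group no test was made. Regions were placed against GENCODE 29 with bedtools 2.31.1, and folds were predicted with RNAfold 2.7.2. TMM factors are from edgeR 4.0.16 and were set separately for the J2 and the Input libraries. Shares have Wilson intervals. The call rule was run on simulated counts with large planted changes in well-read regions and counting error only. That run does not test calls near 50 counts or 2-fold, or variation between libraries. Named were all classes and genes, the 4 most-read names of each class, names called between MPS1i and DMSO or in the change, the 2 most-read regions per class and table, called regions, and up to 3 called genes each way per protein list. Coordinates are as the authors' tables give them. Some results of the protein lists and some sequences are not reported here.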

Additional observations from a re-analysis of the deposited data

How the results depend on the processing

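Log2 values over all members, in the order MPS1i over DMSO in J2, the same in Input, J2 over Input in MPS1i, J2 over Input in DMSO, and the change of enrichment, were -0.21, -0.30, -3.06, -3.14 and 0.08. Values that moved beyond the counting interval were as follows. Without mitochondrial counts in the scaling, Input gave -0.38, and J2 over Input -3.37 (MPS1i) and -3.54 (DMSO). With TMM factors Input gave -0.75 and the change 0.55. J2 over Input moved to -2.83 (MPS1i) and -3.38 (DMSO). These 2 values are not a valid rescaling, because the factors of the J2 and of the Input libraries were set separately and share no reference. With only members on the strand of their element Input gave 0.07, J2 over Input -2.01 (MPS1i) and -1.79 (DMSO), and the change -0.22. With members of at most 500 bp J2 gave 0.02, J2 over Input -3.83 (MPS1i) and -4.15 (DMSO), and the change 0.32. Without the most-read region of each class J2 gave -0.10, Input 0.36, J2 over Input -3.51 (MPS1i) and -3.04 (DMSO), and the change -0.46. With each region counted at most once per library J2 gave 0.46, Input -0.41, J2 over Input 0.12 (MPS1i, a turn of sign) and -0.74 (DMSO), and the change 0.87. With matched regions J2 over Input was -4.17 (MPS1i) and -4.09 (DMSO) and the change -0.08 at 90% overlap, and -4.01, -3.94 and -0.07 at 50%. In 2 alternatives chosen after seeing the data, the 6 gene regions alone gave 0.47 in J2, -7.21 (MPS1i) and -8.00 (DMSO) for J2 over Input, and 0.79 for the change. Repeat-annotated members alone gave -0.19 in Input, -0.44 (MPS1i) and -0.37 (DMSO) for J2 over Input, and -0.07 for the change. The 5 regions called in J2 became 13 at 20 counts, 2 at 100 counts, 8 at 1.5-fold, 1 on the element's strand and 3 at most 500 bp long. The 5 called in Input became 15 at 20 counts, 3 at 100 counts, 11 at 1.5-fold and 1 on the element's strand. Of the class and name calls, checked after seeing the data, TMM factors added lower Input calls for BC200, U13_, tRNA-Cys-TGY and tRNA-Gly-GGA (-1.36 to -1.08). They also added higher changes for HY1 (1.15) and tRNA-Met (1.18). A J2 over Input of 1.14 for U6 in MPS1i with these factors has the limit given above and is not read as a call. Of 24 calls of single names over the 5 comparisons, 22 were lost when the most-read J2 or the most-read Input region of the name was left out, which for several tRNA names leaves under 50 counts. The causes were not tested beyond what each setting leaves out. No paired analysis was possible because each group held 1 library. In J2 only 10 members reached 50 counts, so changes of most single members were not detectable at this depth.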
